A study of Homo sapiens with 4 samples.

Results

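ZFP36L2, CPSF7 and PURB encode proteins that bind nucleic acids, and peaks over their 3'UTRs were called in libraries of F-MARF1ΔNYN, a FLAG-tagged MARF1 that lacks the NYN endonuclease domain. They are 3 of the 117 gene symbols in the final list of bound intervals, where they hold 4 of 282 intervals. They were chosen by measured values, namely a peak in each replicate and an overlap between those peaks, so their peaks are given as a description and were not tested. Every peak that overlaps the body of one of these genes was taken, which gave 12 of the 719 peaks of replicate 1 and 6 of the 534 peaks of replicate 2. The data come from iCLIP, in which ultraviolet light links a protein to the RNA it touches and the linked RNA fragments are immunoprecipitated and sequenced. In HEK293-Trex cells, a human embryonic kidney line made for expression that doxycycline switches on, 2 biological replicates expressed F-MARF1ΔNYN after induction with doxycycline at 100 ng/mL for 12 hours, and 20000000 cells were lysed for each. The 2 controls were HEK293-Trex cells without FLAG-tagged MARF1, put through immunoprecipitation with the same FLAG antibody, and whether they received doxycycline is not given in the sources used here. All 4 libraries came from cells irradiated at 254 nm with 400 mJ per square centimetre. The authors called peaks in each F-MARF1ΔNYN library against the control of the same number.

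MARF1 is an RNA-binding endonuclease with RNA recognition motifs and a row of LOTUS domains, and without the NYN domain it can bind RNA but not cut it. The 3 genes act at different steps of gene expression. ZFP36L2 is a zinc finger protein that binds AU-rich elements in 3'UTRs, the stretch between the stop codon and the poly(A) tail, and promotes removal of the tail and decay of the mRNA. CPSF7 is a subunit of cleavage factor I, which binds UGUA elements upstream of cleavage sites and takes part in the choice between polyadenylation sites. PURB is a member of the PUR family, which binds purine-rich single-stranded DNA and RNA, and is known as a repressor of smooth muscle genes.

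The sequences around the summits of the overlapping peaks are shown because the place where both replicates put the summit can be read from them. The summit is the base covered by most reads after the peak caller extended each read to 100 bp. It need not be the base linked to the protein. Each line gives 30 bases of the hg19 (GRCh37) genome as the mRNA reads, 5′ to 3′, from the minus strand, which all 3 genes use. Capitals mark the stretch from the summit of one replicate to that of the other, both included, or a single summit base where the summits are too far apart for 1 line. All of them lie in the 3'UTR of the last exon.
ZFP36L2, chr2:43450016-43450045: agtgcctttggAAGGGCCCGaacttgcctt
CPSF7 distal interval, chr11:61171003-61171032: cACTCTGCCTGGAGATACTTCCTGCCTCAG
CPSF7 proximal interval, summit of replicate 1, chr11:61171761-61171790: catgcaggatctaggAgagtgactgggtgt
CPSF7 proximal interval, summit of replicate 2, chr11:61171702-61171731: gcactagatttaatgGggccaagagggtcc
PURB, chr7:44923016-44923045: gccagatctCCACTGTGTGAGccagtgaat

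The summits of the replicates were 8 bases apart in ZFP36L2, 11 in PURB, and 28 and 59 in the distal and proximal intervals of CPSF7. The median over these 4 intervals was 19.5 bases, beside 49.0 bases over all 282. In the proximal interval of CPSF7 the summit of replicate 2 lay 44 bases outside the overlap, so there the replicates overlapped at the edges of their peaks. The share of G and C in the printed sites was 56.7% for ZFP36L2 and for the distal CPSF7 interval, and 53.3% for the other 3 sites.

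ZFP36L2 had 1 shared interval, chr2:43449966-43450073, of 108 bp. The peak of replicate 1 there had a fold enrichment of 7.76 over the local background of the peak caller, and that of replicate 2 had 8.58. The reads at the summit, solved from both values that the peak caller gives a peak, its fold enrichment and its p-value, were 13 in replicate 1 (95% Poisson interval 6.92 to 22.2) and 17 in replicate 2 (9.90 to 27.2). The control libraries allowed at most 1 read in the 100 bp at either summit. The intervals of the replicates overlap, and these intervals cover counting error only, for the reads left after the authors removed duplicates. They do not allow for the summit being chosen as the highest point of a peak. The authors' q-values, which are rates of false peaks after correction over the genome, were 4.28e-08 and 2.10e-10.

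Replicate 1 had another 4 peaks in ZFP36L2 that overlapped no peak of replicate 2. Their summits lay 11, 374, 1146 and 1749 nt from the stop codon, in a 3'UTR of 1917 nt, with 7, 6, 8 and 10 reads. Together the 5 peaks of replicate 1 covered 782 nt of the 3'UTR (40.8%), and the single peak of replicate 2 covered 159 nt (8.29%). Both replicates covered 108 nt (5.63%). The peak at 1146 nt came within 54 bp of the peak of replicate 2, and the peak at 1749 nt within 131 bp, while the peaks at 374 and 11 nt were 885 and 1250 bp away.

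The ZFP36L2 peak nearest the coding sequence was the only 1 of the 18 peaks in these genes that reached into a coding sequence. It spanned 153 bp across the stop codon, with a fold enrichment of 6.02 and 7 reads (2.81 to 14.4) over 0 control reads in 100 bp. The site is shown with the stop codon in capitals, in a window of which 66.7% of bases are G or C.
ZFP36L2 stop codon, chr2:43451445-43451474: ccatctccgacgacTGAggcaagagggcgc

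The GENCODE annotation places a long non-coding RNA gene, ENSG00000287387, on the plus strand across the last part of the ZFP36L2 3'UTR, from nt 1092 to its end. It overlaps 3 of the 5 peaks of replicate 1 and the peak of replicate 2, the shared interval included. The peak lists carry no strand, so at these 4 peaks ZFP36L2 mRNA and the RNA of the other strand cannot be told apart. The peaks at 11 and 374 nt lie outside it.

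CPSF7 was the gene of the 3 with 2 shared intervals, and each replicate had 3 peaks in it. At the distal interval, chr11:61170762-61171118, of 357 bp, replicate 1 had a fold enrichment of 9.43 and replicate 2 one of 8.11. Both replicates had 16 reads at the summit (9.15 to 26.0), and at most 1 control read in 100 bp. The overlap took up 95.2% of the peak of replicate 1 and 67.9% of that of replicate 2. This is the member interval with the highest fold enrichment in replicate 1, and the peak of replicate 1 ranked 68 among 719.

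The proximal CPSF7 interval, chr11:61171760-61171791, was an overlap of 32 bp, the smallest of the 4. It took up 31.7% of the peak of replicate 1 and 24.6% of that of replicate 2. The fold enrichments were 5.65 and 7.27, with 11 reads (5.49 to 19.7) and 15 reads (8.40 to 24.7) at the summits, and at most 1 control read in 100 bp in each. It is also the interval that is lost when the overlap must take up 50% of each peak, or 50% of the shorter one.

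The remaining CPSF7 peaks were in 1 replicate each and 172 bp from the closest peak of the other replicate. The peak of replicate 1 had its summit at 1647 nt of the 1981 nt 3'UTR, with 7 reads (2.81 to 14.4) and a fold enrichment of 5.40. The peak of replicate 2 had its summit at 1948 nt, 33 nt before the canonical end, with 11 reads (5.49 to 19.7) and a fold enrichment of 8.18. These peaks are thus side by side in the last part of the 3'UTR, without a shared base. Peaks covered 576 nt of the CPSF7 3'UTR in replicate 1 (29.1%), 763 nt in replicate 2 (38.5%) and 389 nt in both (19.6%), the largest share of the 3 genes.

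Not every annotated CPSF7 transcript holds these sites. The 3'UTR of the canonical transcript, ENST00000439958, has 2 exons, of which the first gives 5 nt and the last 1976 nt. A shorter protein-coding transcript, ENST00000448745, ends in the same last exon at a point 291 nt along the canonical 3'UTR, and all 6 CPSF7 peaks lie past that end. Transcripts that end there do not carry these positions. The transcripts ENST00000340437 and ENST00000394888 end beyond the canonical end, so distances to the end are those of the canonical transcript.

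PURB is a gene of a single exon with a 3'UTR of 8111 nt, longer than 91.8% of the 3'UTRs of the 366 genes that had a peak summit in 1 canonical 3'UTR. The values for ZFP36L2 and CPSF7 in that comparison were 16.9% and 18.9%, so these have short 3'UTRs for this list. Over all 19081 canonical 3'UTRs, where the median was 1068 nt against 3654 nt in the 366 genes, the shares were 67.8%, 68.8% and 98.1% for ZFP36L2, CPSF7 and PURB. Long 3'UTRs offer more room for peaks, and the peaks of replicate 1 per kb were 2.61 in ZFP36L2, 1.51 in CPSF7 and 0.493 in PURB. In replicate 2 these were 0.522, 1.51 and 0.247. Per length, PURB was the gene of the 3 with the fewest peaks in each replicate.

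The shared interval of PURB, chr7:44922988-44923102, was 115 bp long. Replicate 1 had a fold enrichment of 5.71 there and replicate 2 one of 7.42, with 7 reads (2.81 to 14.4) and 13 reads (6.92 to 22.2) at the summits and 0 control reads in 100 bp. Its peak in replicate 1 had a q-value of 5.05e-04, the highest of the 8 peaks that make up the shared intervals. The q-value in replicate 2 was 3.96e-07.

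Replicate 1 had another 3 peaks in PURB, with summits at 3435, 4419 and 5081 nt from the stop codon and 7, 8 and 12 reads. Replicate 2 had another peak at 1728 nt with 12 reads. None of these came closer than 641 bp to a peak of the other replicate, and the peak of replicate 1 at 5081 nt was 3241 bp away. This peak had the highest fold enrichment of PURB in replicate 1 (7.21), above that of the shared interval. It also holds a sequence repeated elsewhere in the genome, as given below. The microRNA gene MIR4657 is annotated on the same strand from nt 2610 to 2662 of this 3'UTR, and 0 peaks of either replicate overlapped it.

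**Figure D1:**
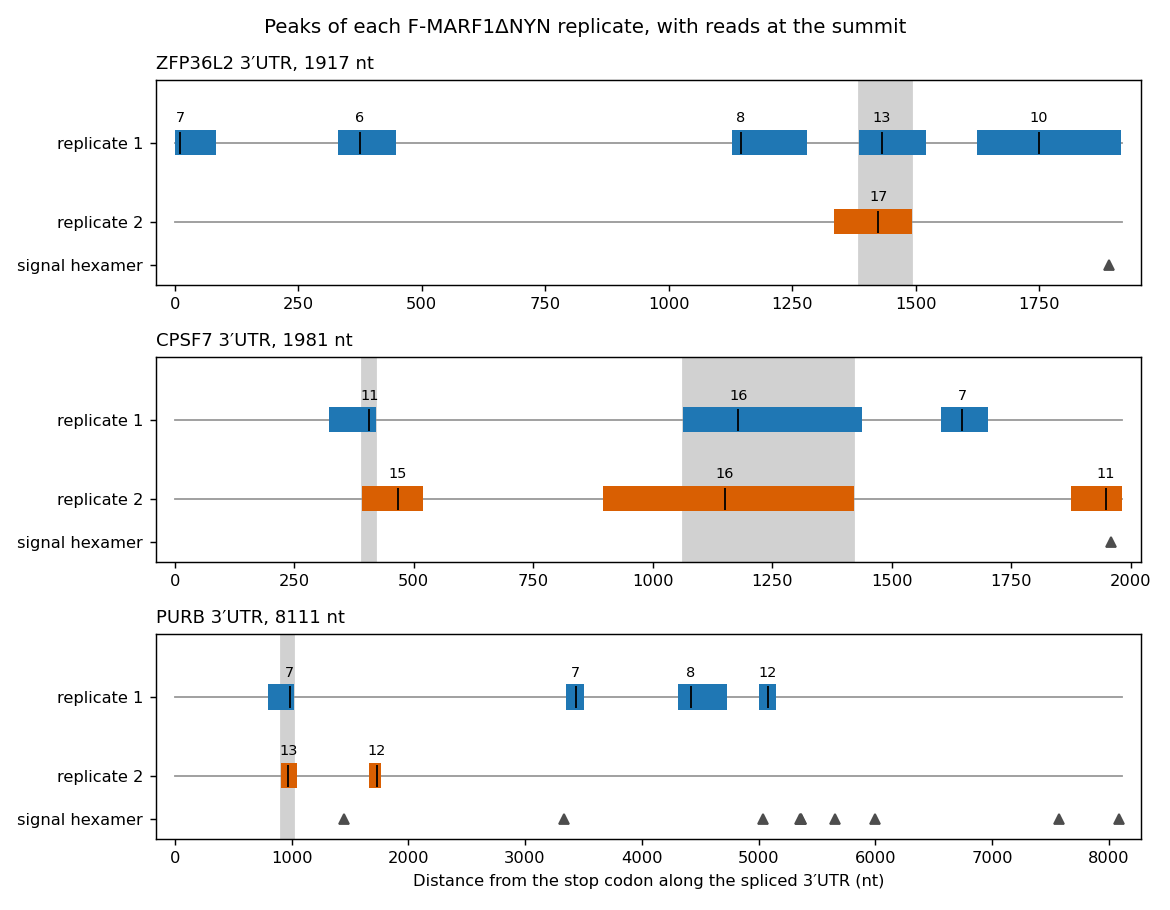
Peaks of each replicate along the 3'UTRs of ZFP36L2, CPSF7 and PURB, by distance from the stop codon in nt. Bars are peaks, the black line in a bar is its summit with its reads above it, grey bands are the shared intervals, and triangles mark AAUAAA hexamers. The 2 CPSF7 bands lie around 407 and 1242 nt, and the single bands of ZFP36L2 and PURB around 1439 and 964 nt.

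Over the 3 genes, 8 of 18 peaks overlapped a peak of the other replicate. In replicate 1 this was 4 of 12 peaks (33.3%), where 35.9% of all 719 peaks were shared. In replicate 2 it was 4 of 6 (66.7%), where 46.8% of all 534 peaks were shared. Since the overlap was part of the choice of the genes, nothing is read from these shares. Of the 10 peaks in 1 replicate, 8 were in replicate 1, which also had more peaks in all, 719 against 534. Of the same 10, 4 lay within 200 bp of a peak of the other replicate. The share of all single-replicate peaks within that distance is not given here, so nothing is read from these counts either. The gaps ran from 54 to 3241 bp.

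Few reads were left at these summits after the authors removed duplicates. Reads at the summit ran from 6 to 16 in replicate 1 and from 11 to 17 in replicate 2, with medians of 8 and 14, beside medians of 8 and 11 over all peaks of each replicate. In replicate 1 the median was 12 for the 4 shared peaks and 7.5 for the 8 single-replicate peaks, and in replicate 2 it was 15.5 for 4 and 11.5 for 2. At 10 of the 18 summits the control allowed 0 reads in 100 bp, and at the other 8 it allowed at most 1. The number was 0 at 7 of 12 peaks of replicate 1 and 3 of 6 of replicate 2, beside 70.7% and 67.2% of all peaks. Whether a peak seen in 1 replicate alone was absent from the other or missed at this depth cannot be told apart, since the lists give no value where no peak was called.

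**Figure D2:**
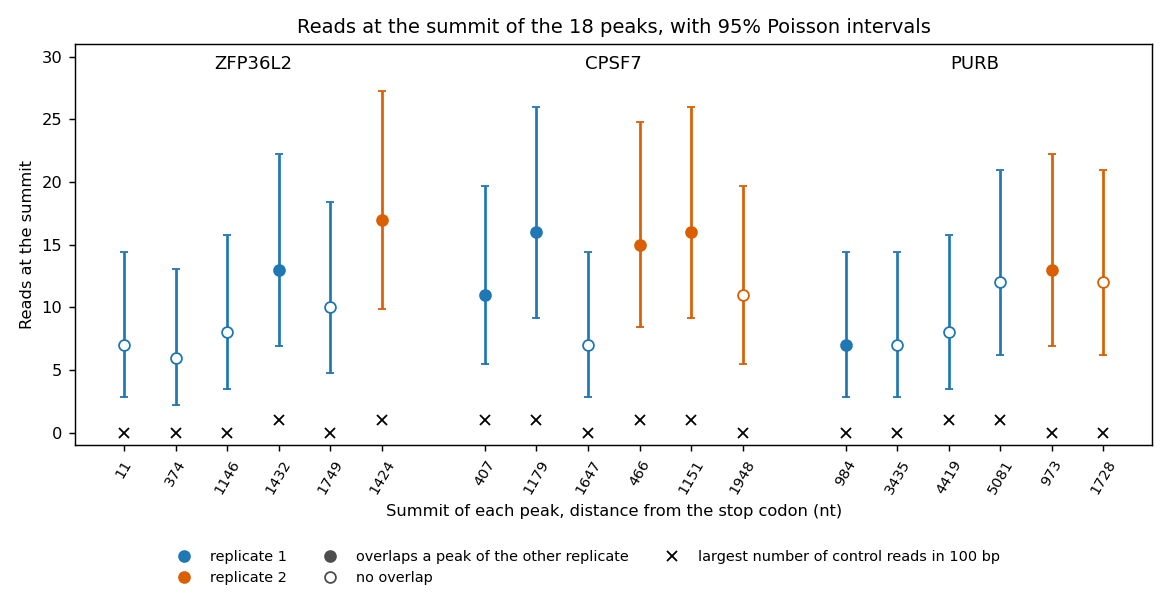
Reads at the summit of the 18 peaks, ordered by gene, replicate and distance from the stop codon in nt, with 95% Poisson intervals, which cover counting error only. Filled points overlap a peak of the other replicate, and crosses give the largest number of control reads the background allows in 100 bp. All points lie between 6 and 17 reads and all crosses at 0 or 1.

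Set among all peaks, these are middling sites. By the median fold enrichment of replicates 1 and 2, their 4 shared intervals had 6.74 and 7.76, beside 7.33 and 8.41 over all 282. The median fold enrichment was 5.86 over the 12 peaks of replicate 1, beside 6.12 over all peaks of that replicate, and 4 of the 12 were above the latter. For the 6 peaks of replicate 2 it was 7.76 beside 7.50, and 3 were above. The range was 4.99 to 9.43 in replicate 1 and 6.53 to 8.58 in replicate 2, where all peaks reached 23.6 and 19.4. The weakest peak of the 18 by q-value, the ZFP36L2 peak at 374 nt in replicate 1, had a q-value of 0.00547, which is inside the threshold of 0.05 that the authors set.

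**Figure D3:**
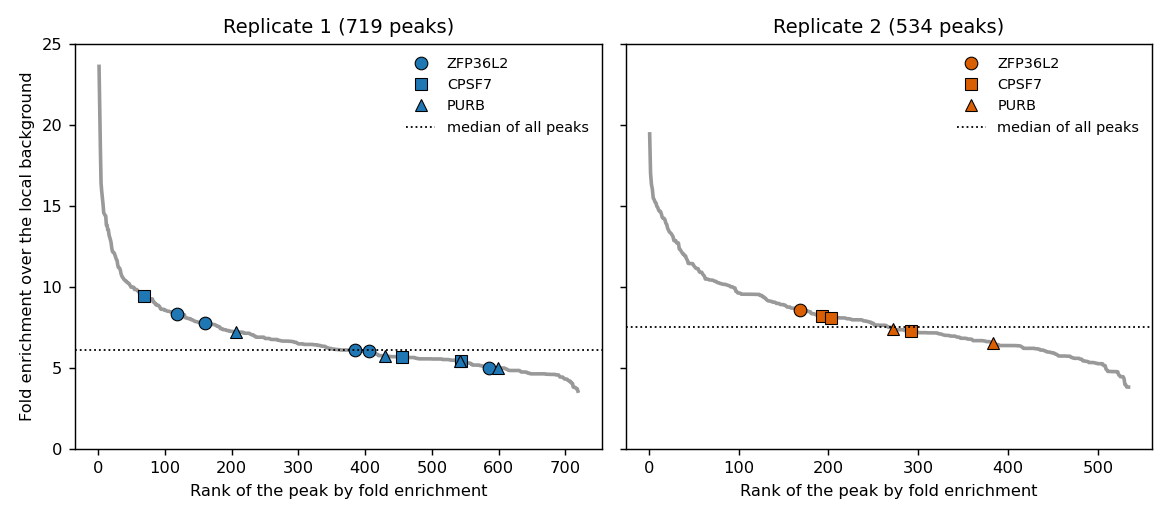
Fold enrichment over the local background for all peaks of each replicate, ranked from highest to lowest (grey line), with the peaks of ZFP36L2 (circles), CPSF7 (squares) and PURB (triangles). The dotted line is the median of all peaks, 6.12 in replicate 1 and 7.50 in replicate 2, and the marked peaks lie on both sides of it.

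For an order of the 117 genes, the highest fold enrichment of each replicate was taken from the peaks that make up shared intervals, and the lower of both values was used. By this measure CPSF7 was at place 40, ZFP36L2 at 50 and PURB at 86. CPSF7, at 8.11, stood between HIPK1 (8.27) and NRARP (8.11). ZFP36L2, at 7.76, stood between FAR1 (7.76) and SKI (7.63), and PURB, at 5.71, between G3BP1 (5.73) and ROR1 (5.69). The replicates of each of the 3 genes differed by more than its value differed from those of its neighbours, with 9.43 and 8.11 for the shared intervals of CPSF7, 7.76 and 8.58 for ZFP36L2 and 5.71 and 7.42 for PURB, so places next to each other in this order are not told apart. MARF1 itself, which the cells also expressed from the transgene, had 21 peaks in replicate 1, 20 in replicate 2 and 18 shared intervals, with highest fold enrichments of 15.5 and 16.04 over all its peaks, shared or not.

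Related genes are set beside a background in which 1.94% of 20149 protein-coding genes had a peak in replicate 1, 1.23% in replicate 2 and 0.571% a shared interval. In the ZFP36 family, ZFP36 and ZFP36L1, which bind the same kind of element, had 0 peaks in either replicate. Their 3'UTRs are 708 and 1871 nt long. In the PUR family, PURA had 1 peak in replicate 1 with a fold enrichment of 5.55 and 5 reads, and 0 in replicate 2, while PURG had 0 in both. RNA levels were not analysed here, so weak expression of a gene without a peak and weak binding cannot be told apart.

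In cleavage factor I, both genes other than CPSF7 had a peak in replicate 1, where the share of all protein-coding genes was 1.94%. NUDT21, its UGUA-binding subunit, had 1 peak in each replicate and 1 shared interval, with fold enrichments of 4.99 and 5.97. CPSF6, the other large subunit, had 1 peak in replicate 1 with a fold enrichment of 4.99 and 8 reads, and 0 in replicate 2. All of these summits were in 3'UTRs. Of 16 genes for other parts of the machinery that cuts and polyadenylates mRNA, such as CPSF1, CSTF2 and PAPOLA, 0 had a peak in either replicate. Their 3'UTRs ran from 84 to 10401 nt with a median of 875 nt. Those of CPSF7, NUDT21 and CPSF6 were 1981, 3579 and 4850 nt long. A part of length in this count was not tested, and at a background of 1.94% nothing is read from the count.

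Of 8 other genes for proteins that bind decay elements in 3'UTRs, AU-rich or stem-loop, RC3H2, known chiefly for stem-loops, had 1 peak, in replicate 2, with a fold enrichment of 7.15 and 14 reads. Of 19 genes of deadenylation and decapping, DCP2, the decapping enzyme, had 1 peak in replicate 1 (5.12, 7 reads) and CNOT9, a subunit of the deadenylase complex, 1 in replicate 2 (7.17, 8 reads), and 0 had a shared interval. Across the 49 listed genes other than ZFP36L2, CPSF7 and PURB, 4 had a peak in replicate 1, 3 in replicate 2 and 1 in both at a shared interval. With counts this low, nothing particular to these lists is read from them.

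All 18 summits lay in the 3'UTR, and over all peaks 77.1% of replicate 1 and 82.6% of replicate 2 had a summit in 1 canonical 3'UTR. The 18 summits took no common place in the 3'UTR. As a share of the distance from the stop codon to the end, the summits of replicate 1 ran from 0.574% to 91.2% with a median of 57.0%, and those of replicate 2 from 12.0% to 98.3% with a median of 40.8%. Over all peaks with a summit in 1 canonical 3'UTR, the medians were 51.5% of the way for 554 peaks of replicate 1 and 53.8% for 441 peaks of replicate 2. The shared summits of replicates 1 and 2 were 74.7% and 74.3% of the way in ZFP36L2 and 12.1% and 12.0% in PURB. In CPSF7 they were at 20.5% and 23.5% in the proximal and at 59.5% and 58.1% in the distal interval.

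The base composition at the summits was compared with all windows of 100 nt in the same 3'UTR. Windows were centred on the summit, or moved to stay inside the 3'UTR for the summits at 11 nt in ZFP36L2 and 1948 nt in CPSF7. At the 8 shared summits, G and C made up 48% and 47% in ZFP36L2 (replicates 1 and 2), where all windows of that 3'UTR had a mean of 37.5%. PURB had 46% and 45%, beside a mean of 37.4%. In CPSF7 the proximal summits had 51% and 50% and the distal summits 49% and 45%, beside a mean of 48.7%. So 7 of 8 shared summits were above the mean of their own 3'UTR, by a margin in ZFP36L2 and PURB and by little in CPSF7. Among the 10 single-replicate summits, 5 were above.

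The predicted folding energy of the same windows, where a lower value means a more stable predicted fold, was below the mean of the own 3'UTR at all 8 shared summits. ZFP36L2 had -25.4 and -20.9 kcal/mol beside a mean of -17.8, and PURB had -29.3 and -27.5 beside -17.9. The ZFP36L2 energies are those of its mRNA strand, while the strand bound there is not known. CPSF7 had -35.1 and -26.3 at the proximal and -24.8 and -28.6 at the distal summits beside -24.3. The proximal CPSF7 summit of replicate 1 and the PURB summit of replicate 1 were in the lowest 4.41% and 4.53% of windows of their 3'UTRs, whereas the distal CPSF7 summit of replicate 1 was near the middle, with 47.4% of windows lower. Of the 10 single-replicate summits, 3 were below the mean, and the PURB summit at 5081 nt (-32.2 kcal/mol) was in the lowest 2.53% of its windows, the lowest rank of the 18. That PURB peak holds a sequence repeated elsewhere in the genome, as given below. The ZFP36L2 summit at 11 nt, also in replicate 1 alone, was in the lowest 5.78% of its windows. A low rank was thus not limited to shared summits.

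The split into shared and single-replicate summits was made after the values were seen. Over all peaks with a summit in 1 canonical 3'UTR of at least 200 nt, the energy was below the mean of the own 3'UTR in replicate 1 for 129 of 203 shared summits (63.5%) and 194 of 351 single-replicate summits (55.3%), and in replicate 2 for 129 of 197 (65.5%) and 139 of 244 (56.97%). The share of G and C was above it for 70.4% and 57.3% in replicate 1 and for 69.04% and 66.4% in replicate 2, so the difference in G and C was small in replicate 2. The 2 summits of an interval come from overlapping RNA, so the 8 shared summits stand for 4 places. G and C content and predicted energy move together, and their parts in these values were not tested.

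**Figure D4:**
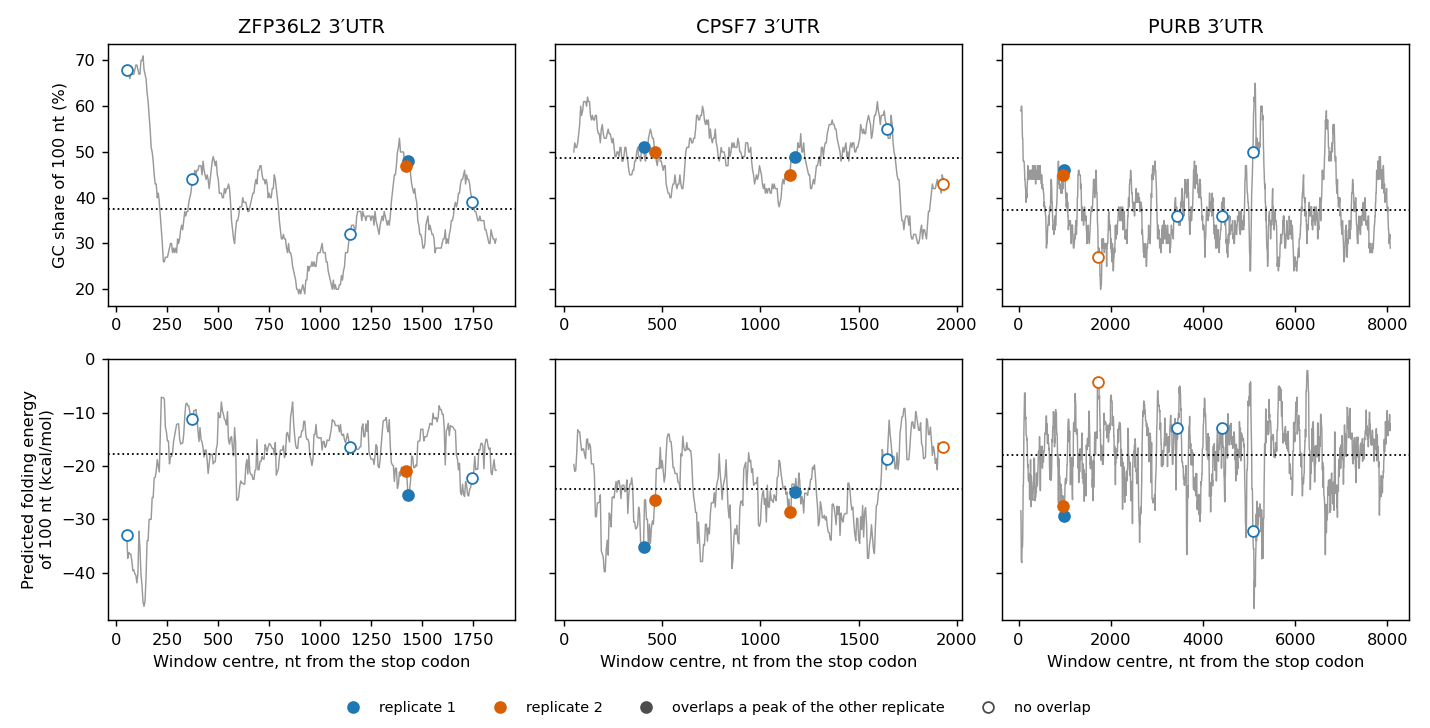
Share of G and C (top, %) and predicted folding energy (bottom, kcal/mol) in windows of 100 nt along the 3'UTRs, by distance of the window centre from the stop codon in nt. Points are the windows at the summits of each replicate, filled where the peak overlaps one of the other replicate, and dotted lines are the mean of all windows. All 8 filled points lie below the dotted line for energy.

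Short elements that the encoded proteins or their partners bind were looked up on the mRNA strand of the 3'UTRs. The strand bound is not known for the ZFP36L2 peaks that overlap the long non-coding RNA gene. AUUUA, the core of AU-rich elements, occurs 5 times in the ZFP36L2 3'UTR, with first bases between nt 846 and 1091, and 0 of these lie inside a peak, although the peaks of both replicates together cover 43.5% of it. In PURB 2 of 21 and in CPSF7 1 of 2 copies lie inside a peak. A copy lies in the 100 nt at 2 of the 18 summits, 1 in CPSF7 and 1 in PURB, while 14.9%, 10.2% and 22.5% of windows of that length in the 3'UTRs of ZFP36L2, CPSF7 and PURB hold one. Over all 3'UTR summits the shares were 17.1% in replicate 1 and 11.1% in replicate 2.

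UGUA, the element of cleavage factor I, occurs 4 times in the CPSF7 3'UTR, and 3 of these lie inside a peak, in peaks that cover 47.96% of it. In ZFP36L2 14 of 23 copies and in PURB 8 of 62 lie inside peaks that cover 43.5% and 13.1%. At the summits, 5 of 18 windows of 100 nt hold it, while 60.6%, 16.7% and 47.9% of windows in ZFP36L2, CPSF7 and PURB do, and 49.6% and 45.6% of windows at all summits of replicates 1 and 2. By gene, the element lay at 2 of 6 summits in ZFP36L2, 1 of 6 in CPSF7 and 2 of 6 in PURB.

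AAUAAA, the usual polyadenylation signal, occurs once in ZFP36L2 and once in CPSF7, 20 and 17 nt before the 3′ end of the canonical transcript. Each lies inside a peak of 1 replicate, the peak of replicate 1 with its summit at 1749 nt in ZFP36L2 and the peak of replicate 2 with its summit at 1948 nt in CPSF7. PURB has 10 copies, of which 1 lies inside a peak, at 5042 nt, in the peak of replicate 1 with its summit at 5081 nt. The last copy, 17 nt before the end of the PURB 3'UTR, is not in a peak. In windows of 100 nt, 1.16%, 0.956% and 8.62% of the 3'UTRs of ZFP36L2, CPSF7 and PURB hold AAUAAA, beside 2 of 18 summit windows and 6.86% and 5.67% of those of all peaks in replicates 1 and 2. A match gives the letters only and says nothing of use by a factor.

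The 18 peak sequences were also searched for in the rest of the genome, since reads from a near copy could be placed in these genes. No copy of at least 95% identity over 90% of a peak was found for any of them. For 5 of the 6 ZFP36L2 peaks there was a match of 83 to 281 nt at 85.8% to 90.8% identity on chromosome 2 or 11. The peak over the stop codon had none of that length. The PURB peak at 5081 nt holds a repeated sequence, with 2373 other places that match at least 50 nt at 95% identity or more, and no other peak had such a match. The authors' processing dropped reads placed at more than 10 sites and kept only the primary placement of the others, which limits reads from copies. The part of such reads left in the peak was not tested.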

How the data were processed

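The iCLIP libraries were 2 of F-MARF1ΔNYN and 2 of controls. Per the submitters' processing notes and the study's methods, the authors used Trimmomatic 0.32 for trimming, STAR 2.3.0e for alignment to the hg19 (GRCh37) genome, SAMtools 1.9 for filtering and Picard 2.10.7 for duplicates, and called peaks with MACS2 2.1.1 at an extension of 100 bp and an FDR of 0.05, replicate by replicate. HOMER 4.10 annotated the overlap of both lists. In the lists that the authors deposited, each peak has a score, a fold enrichment (a ratio over the local background) and the −log10 of its p-value and q-value. The lists give no value per library, so library totals are unknown and no comparison was tested.

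Peaks were matched to GENCODE release 44 on the same build and intersected at 1 bp, which gave the same 282 intervals as the final list. Distances were counted along the spliced 3'UTR of the canonical transcript. Reads and background at each summit were solved from the Poisson p-value together with the fold enrichment. The caller computes the latter as reads plus 1 over background plus 1. The step was tested on data simulated with the same formula, which checks the solving and not the formula itself. Whole reads were found for 719 of 719 and 534 of 534 peaks, with 4 of the latter having several solutions, and a read weight of 1 in replicate 1 and 0.951 in replicate 2. The tolerance on −log10 p was 0.0002, larger for large values. Control reads are the most that the background allows. Energies came from ViennaRNA 2.7.2 without lone pairs, copies from blastn 2.17.0. Means over all peaks used windows every 20 nt. Other tools were pysam 0.24.0, samtools 1.23.1, matplotlib 3.10.9, pandas 2.3.3, scipy 1.17.1, numpy 2.4.6 and Python 3.11.15.

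The genes and the lists of related genes were chosen with earlier results of these data known. The genes named are the 3 chosen genes, related genes with a peak, MARF1 and the neighbours in the order of fold enrichment. Related genes named without a peak, and the lookup of transcripts and of copies in the genome, were chosen after values were seen. Alternatives were stricter q-values, fold enrichment, overlap rules, gene limits, windows, annotation, read weight and each replicate alone.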

Additional observations from a re-analysis of the deposited data

How the results depend on the processing

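Of 43 alternatives over 9 results, 37 kept a count within 1.5 times or a value within 1 SD of the replicates, a limit that values of single replicates define and so tend to meet, and that is wide for folding energy. Some of these could not move. The highest q-value of the 18 peaks was 0.00547 and the lowest fold enrichment 4.99, so limits of 0.01 and 4 removed no peak. A shared interval in each gene was also part of how the genes were chosen. The 3 genes kept a shared interval in each alternative that uses both replicates, and the 4 intervals became 3 under each stricter overlap rule. Counting the peaks of 1 replicate instead gave 6 to 12 in place of 4 shared intervals, 12 in replicate 1 alone, since no overlap is then asked for. Requiring a q-value below 0.001 left 8 of 12 peaks of replicate 1 and 6 of 6 of replicate 2. The median log2 fold enrichment of the intervals was 2.87, and 3.03 with the highest interval of each gene. The share of G and C at the shared summits exceeded the mean of the own 3'UTR by a median of 4.97 percentage points in windows of 100 nt, by 8.78 in 30 nt, 6.52 in 50 nt and 1.75 in 200 nt, and by 1.92 over all 18 summits. What causes these shifts was not tested. The median difference in folding energy was -5.87 kcal/mol, with -9.19 to -3.69 in single replicates and -2.54, outside that range, over all 18 summits, and the median reads over the 18 peaks were 11, with 8 to 14 in single replicates. The values over all summits and the reads by replicate are alternatives added once the data had been seen. A read weight of 1 solved 0 of the 6 peaks of replicate 2, so it gives no value there. No paired analysis was made, since no comparison was tested. Each fold enrichment already sets a library against its own control, and for the controls only an upper bound on reads is known. With 6 to 17 reads at a summit, differences in reads between these peaks are mostly within their counting intervals, and a peak missing from 1 replicate may be below detection.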
